A study of Mus musculus with 6 samples.

Results

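The genes described are 8 genes of plasminogen activation, its inhibitors and the cell surface control of coagulation in mouse: Plat, Plau, Plaur, Serpine2, Serpinb2, Serpinf1, F3 and Thbd. They were chosen by name, with earlier results of these data known. Each was read from its array probe set that carries a single gene name, the one with the highest mean where a gene has several. Of the 8 genes, 7 had such a probe set, 1 each, among 19936 genes tested, and Serpine2 was not analysed here. RNA of 6 samples was hybridised to Affymetrix arrays, 300 ng per array. Tet-off mouse embryonic fibroblasts (MEFs), a stable line with a tetracycline-controlled transactivator, gave 3 control samples without transfection. The other 3 samples came from HA-Fbxl10 cells, the same line after transfection with an HA-tagged Fbxl10 cDNA and a hygromycin resistance plasmid, as clones selected for expression of the tagged protein. The sources used here do not state the medium or any use of doxycycline. No group with an empty plasmid was among the samples, so Fbxl10 cannot be told apart from transfection, drug selection and clone choice as the source of a difference. The sources do not say whether samples of a group are separate clones or cultures. The p-values thus rest on a spread between samples that may be technical.

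Plasmin, the protease that dissolves fibrin and cleaves matrix proteins, is made from plasminogen by a tissue-type activator (Plat) and a urokinase-type activator (Plau). Urokinase acts largely while bound to its receptor (Plaur), and serpins, protease inhibitors that trap their target in a covalent complex, limit the activators and plasmin. Fibroblasts secrete activators and inhibitors during migration and wound repair. Coagulation, which lays down the fibrin, starts when tissue factor (F3) binds factor VII, and thrombomodulin (Thbd) turns thrombin toward anticoagulant cleavage. Fbxl10, now named Kdm2b, is a histone demethylase with a CXXC zinc finger that binds unmethylated CpG.

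All values are log2 expression after RMA, in which background correction, quantile normalisation and probe summary had been applied by the authors. Array medians lay between 4.69 and 4.79, and Pearson correlations over all genes were 0.997 to 0.998 within groups and 0.991 to 0.992 between them. Levels of different genes were read by different probes and are not compared with each other. The number of arrays limits the precision. Kdm2b, the transfected gene, read 7.38, 7.45 and 7.28 in control cells and 9.77, 9.75 and 9.58 in HA-Fbxl10 cells. That is 5.03-fold higher (limma adjusted p = 3.31e-07), in the direction of the labels. Of 15 fibroblast markers, 12 lay above the median level of all genes (5.36), and their mean level was 9.47 to 9.52 on control arrays and 9.35 to 9.45 on HA-Fbxl10 arrays. Of these markers 3 fell, Col3a1 (-0.79), Col6a1 (-0.44) and Pdgfra (-0.30, log2 differences), and the others were not called. The median log2 difference of the 15 was -0.05.

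The bases before the transcription starts of 3 of these genes and of Tfpi, a partner gene described below, are shown because CpG is what the CXXC finger of Fbxl10 binds. RefSeq's promoter table of build GRCm38.p6 held windows for 4 of the 7 measured genes, and none is shown for Plat, Plau and Thbd. The Plaur window precedes a start that lies inside the annotated span of the gene. Each line gives the 250 bases before the start, 5′ to 3′ on the gene's strand, with every CpG in capitals.
F3 (chr3:121723287-121723536, plus strand): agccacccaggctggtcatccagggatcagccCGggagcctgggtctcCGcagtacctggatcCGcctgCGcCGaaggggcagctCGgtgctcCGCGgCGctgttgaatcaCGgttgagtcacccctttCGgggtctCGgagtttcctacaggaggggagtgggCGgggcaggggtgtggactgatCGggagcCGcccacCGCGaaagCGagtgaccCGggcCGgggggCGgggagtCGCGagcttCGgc
Plaur (chr7:24462233-24462482, plus strand): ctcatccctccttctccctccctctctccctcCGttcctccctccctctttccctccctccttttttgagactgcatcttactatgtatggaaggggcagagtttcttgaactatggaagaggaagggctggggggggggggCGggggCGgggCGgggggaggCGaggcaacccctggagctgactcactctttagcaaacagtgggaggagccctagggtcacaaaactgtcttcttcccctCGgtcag
Serpinf1 (chr11:75422624-75422873, minus strand): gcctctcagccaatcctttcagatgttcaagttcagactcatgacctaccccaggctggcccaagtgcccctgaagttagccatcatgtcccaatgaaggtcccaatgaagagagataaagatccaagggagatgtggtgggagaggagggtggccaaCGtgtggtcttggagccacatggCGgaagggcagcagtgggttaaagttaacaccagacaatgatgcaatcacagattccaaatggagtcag
Tfpi (chr2:84476760-84477009, minus strand): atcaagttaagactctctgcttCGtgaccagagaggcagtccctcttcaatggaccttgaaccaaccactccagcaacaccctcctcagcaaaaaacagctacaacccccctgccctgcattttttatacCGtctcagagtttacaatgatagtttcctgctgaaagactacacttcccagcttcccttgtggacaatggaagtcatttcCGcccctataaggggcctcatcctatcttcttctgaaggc
The F3 window held 24 CpG, the Plaur window 6, the Serpinf1 window 2 and the Tfpi window 3, against a median of 6 over 32851 such windows. The share of all windows with fewer CpG was 88.0% for F3 and 18.8% for Serpinf1. The Tfpi window shown is the outer of its 2 listed starts, and the inner window also held 3 CpG. The 2 windows of Serpinb2, not shown, held 0 and 3, and both lie inside the annotated span of that gene. A search on both strands for the AP-1 motif TGANTCA, where N is any base, found 2 matches before F3, 1 before Plaur, 1 before Serpinb2 in each of its 2 windows, and 0 before Serpinf1 and Tfpi. The F3 matches begin 146 and 135 bases before the start and the Plaur match 69 bases before it. This motif occurs in 6.75% of all windows. The GC box GGGCGG, searched likewise, had 3 matches before F3, 3 before Plaur, 1 before Tfpi in each of its 2 windows, and 0 before Serpinf1 and Serpinb2, and occurs in 32.7% of windows. Such matches describe the letters of these windows and are not evidence of binding.

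HA-Fbxl10 cells had less RNA of both plasminogen activators, of the serpin Serpinf1 and of tissue factor than control cells. The receptor gene Plaur, the inhibitor gene Serpinb2 and the thrombomodulin gene Thbd did not pass the test. Of the 7 measured genes, 4 fell, 0 rose and 3 were not called (limma, Benjamini-Hochberg adjusted p under 0.05 over all genes). At an unadjusted p under 0.05, limma had 5 of the 7 lower and 0 higher, against 3168 lower and 3077 higher of all 19936 genes. At an adjusted p under 0.05, 21.1% of all genes were called, 10.5% higher and 10.6% lower, and among genes above the median level 37% were called. Of the 5 measured genes above that level 4 were called. The median log2 difference of the 7 genes was -0.37, against 0.00 over all genes. The 2 groups of arrays did not overlap for 4 of the 7 genes, against 36% of all genes. In these bulk samples a smaller share of expressing cells and less RNA per cell cannot be told apart.

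**Figure D1:**
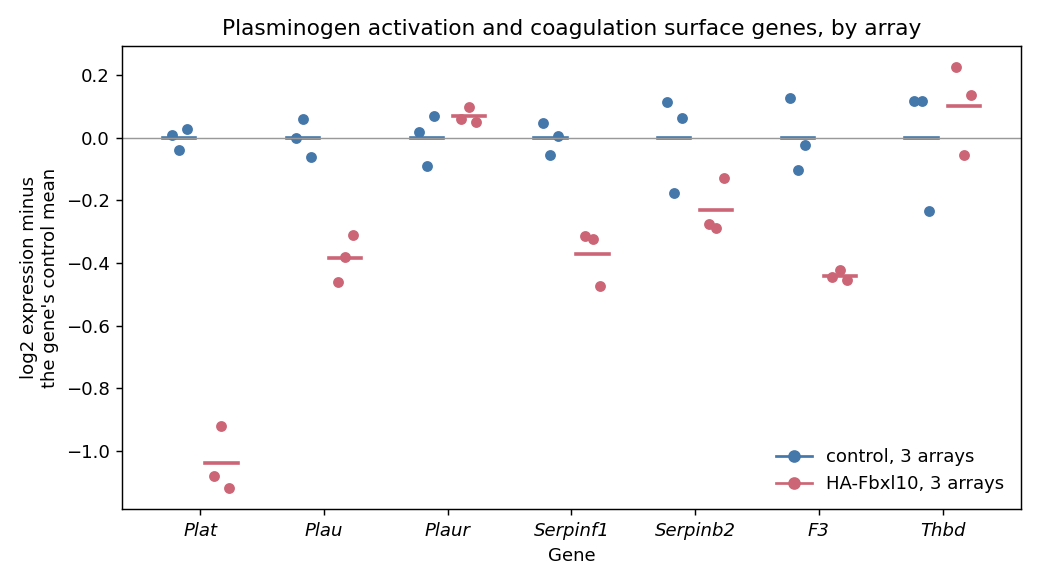
Log2 expression of 7 genes on each array, minus the gene's mean over the 3 control arrays. Points are arrays, 3 per group, and bars are group means. All 3 HA-Fbxl10 points lie below all 3 control points for Plat, Plau, Serpinf1 and F3, and the groups overlap for Plaur, Serpinb2 and Thbd.

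Plat, the tissue-type activator gene on chromosome 8, had the largest change of the set. Its log2 level was 8.55, 8.50 and 8.57 on the control arrays and 7.46, 7.62 and 7.42 on the HA-Fbxl10 arrays. The groups lay far apart relative to their spread, with SDs of 0.04 and 0.10. Plat was 2.06-fold lower, a log2 difference of -1.04 ± 0.07 (SE, limma adjusted p = 1.89e-05), and the groups did not overlap.

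Plau, the urokinase gene on chromosome 14, read 8.54, 8.60 and 8.48 in control cells and 8.08, 8.16 and 8.23 in HA-Fbxl10 cells. Every HA-Fbxl10 array was below every control array. The fall was 1.30-fold, a log2 difference of -0.38 ± 0.07 (SE, limma adjusted p = 0.00356). Within each array the Plat value minus the Plau value was lower by 0.66 in HA-Fbxl10 cells. The measured changes of the 2 activators, read by different probes, thus differed by 1.58-fold. The exact two-sided permutation test over the 6 arrays gave p = 0.1, the smallest it can give for 3 against 3. It was also 0.1 after adjustment over the 3 pairs of genes compared this way, so this test cannot decide whether the changes differ.

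Plaur, the gene of the urokinase receptor, a protein anchored to the membrane by a lipid, is on chromosome 7. It read 9.51, 9.40 and 9.56 in control cells and 9.55, 9.59 and 9.54 in HA-Fbxl10 cells. The groups overlapped, and the difference was 0.07 with a 95% interval from -0.08 to 0.22 (limma adjusted p = 0.541). That interval leaves room for a fall of 0.08 or a rise of 0.22 on the log2 scale. The Plau value minus the Plaur value within an array was lower by 0.46 in HA-Fbxl10 cells (exact permutation p = 0.1, the smallest possible, adjusted 0.1).

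Among the serpins, Serpinf1 fell. It encodes pigment epithelium-derived factor, a secreted serpin known for blocking blood vessel growth rather than for inhibiting proteases. Its level was 10.50, 10.40 and 10.46 on control arrays and 10.14, 10.13 and 9.98 on HA-Fbxl10 arrays. The groups did not overlap, and the difference was -0.37 ± 0.07 (SE, 1.29-fold lower, limma adjusted p = 0.00455).

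Serpinb2, the gene of plasminogen activator inhibitor type 2, read 3.69, 3.40 and 3.64 in control cells and 3.30, 3.29 and 3.45 in HA-Fbxl10 cells. Control replicate 2 lay within the range of the HA-Fbxl10 arrays. The difference was -0.23 with a 95% interval from -0.43 to -0.03, and it did not pass over all genes (limma adjusted p = 0.105, unadjusted 0.0285). Without control replicate 2 it was -0.32 with an adjusted p of 0.0258. The gene's mean level, 3.46, lay below the lower quartile of all genes (3.75), where signal and background cannot be separated in these values.

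F3, the tissue factor gene on chromosome 3, read 8.24, 8.01 and 8.09 in control cells and 7.67, 7.69 and 7.66 in HA-Fbxl10 cells. The HA-Fbxl10 arrays lay close together (SD 0.02) and below all control arrays (SD 0.12). F3 was 1.36-fold lower, a log2 difference of -0.44 ± 0.07 (SE, limma adjusted p = 0.00238). Thbd, the thrombomodulin gene on chromosome 2, read 4.23, 4.23 and 3.88 in control cells and 4.34, 4.06 and 4.25 in HA-Fbxl10 cells. Its groups overlapped, with a difference of 0.11 and a 95% interval from -0.14 to 0.35 (limma adjusted p = 0.595). Its mean level of 4.17 lay between the lower quartile and the median of all genes.

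**Figure D2:**
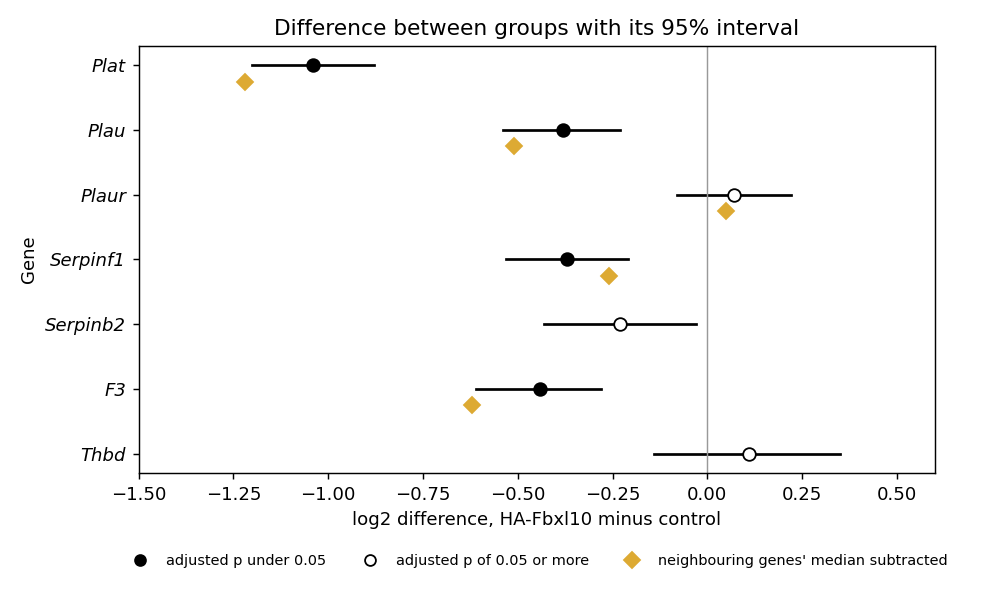
Log2 difference, HA-Fbxl10 minus control, of 7 genes with its 95% interval from limma (circles, n = 3 arrays per group), and the same after the median of neighbouring genes was subtracted (diamonds). Filled circles mark an adjusted p under 0.05. Plat is farthest from 0 at -1.04, and the intervals of Plaur and Thbd span 0.

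Whether fold changes in these arrays follow position along chromosomes was not tested. Each gene was set beside the 30 nearest expressed genes on its chromosome, those with a mean above the median level. All 30 around Plat had a less negative difference than Plat, their median was 0.19, and 11 rose while 3 fell. The closest to Plat was Tcim, at -1.0. Around Plau the median was 0.13, with 9 neighbours higher and the others not called, and 0 of 30 had a lower difference than Plau. Around F3 the median was 0.18, with 12 higher and 2 lower, and 1 of 30 had a lower difference than F3. These 3 genes thus fell in stretches where called neighbours mostly rose. Of all genes above the median level 37% were called, in either direction. Serpinf1 lay in a stretch with a median of -0.11, in which 2 neighbours rose and 8 fell. There 3 of 30 had a lower difference than Serpinf1. Since Plat, Plau, F3 and Serpinf1 were called for a fall, few neighbours below them is no separate result. Around the genes not called the medians were 0.02 (Plaur, 4 neighbours higher and 0 lower), 0.03 (Serpinb2, 8 and 2) and 0.04 (Thbd, 4 and 3).

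The subtraction of a running median of 31 expressed genes moved Plat from -1.04 to -1.22, Plau from -0.38 to -0.51 and F3 from -0.44 to -0.62. It moved Serpinf1 from -0.37 to -0.26 (limma adjusted p = 0.0355). After this step the same 4 of the 7 genes were called, against 15.4% of all genes. The medians subtracted from Plat, Plau and F3 were positive, so the step could only enlarge their falls. Serpinb2 and Thbd lay below the median level and were left as they were.

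**Figure D3:**
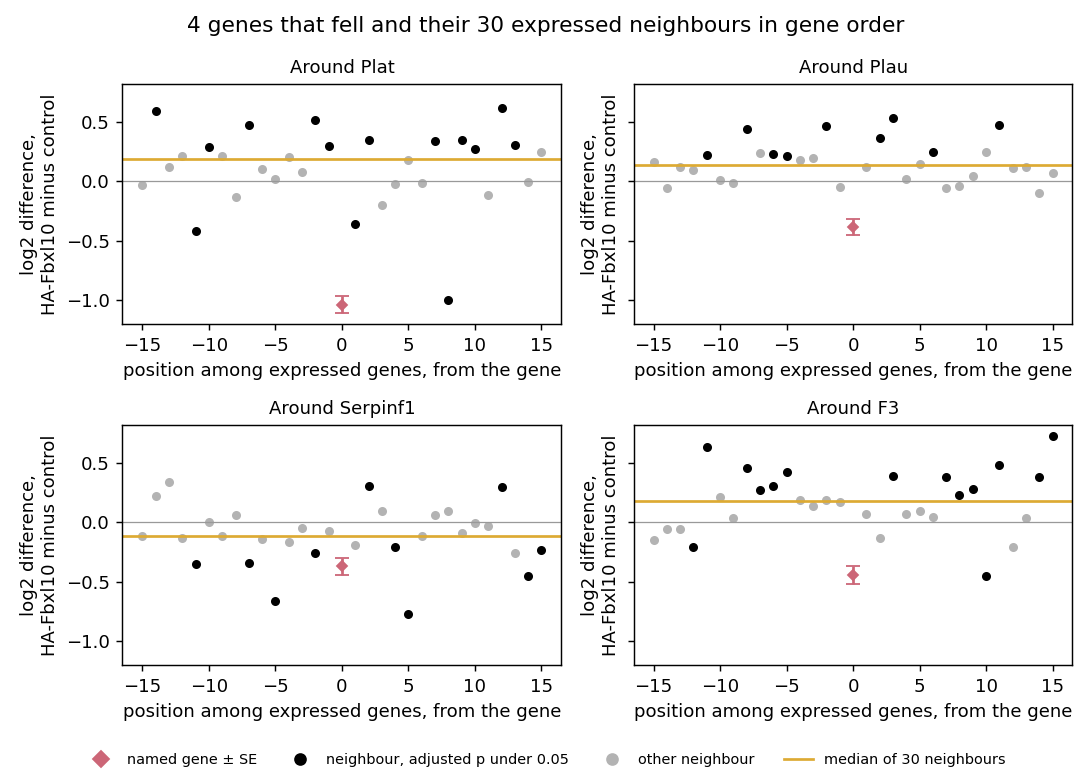
Log2 difference, HA-Fbxl10 minus control, of Plat, Plau, Serpinf1 and F3 (diamonds with SE bars) and of the 30 nearest expressed genes in gene order (circles, black where the adjusted p is under 0.05). The horizontal axis counts expressed genes from the named gene, and the coloured line is the neighbours' median, 0.19 around Plat, 0.13 around Plau, -0.11 around Serpinf1 and 0.18 around F3.

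Other genes of the plasminogen system went both ways. Of 25 listed, 20 were measured, and 3 rose, 5 fell and 12 were not called, with a median log2 difference of -0.03. That is 40% called, against the 21.1% of all genes. The falls numbered 3, as many as the rises, with array medians subtracted, with all probe sets tested, at an adjusted p of 0.01 and without HA-Fbxl10 replicate 3. Of the 8 called, 5 encode receptors. Mrc2, a collagen uptake receptor that associates with the urokinase receptor, fell by 1.47 ± 0.13 (SE, limma adjusted p = 6.9e-05). It read 7.36, 7.44 and 7.79 in control cells and 5.90, 6.27 and 6.0 in HA-Fbxl10 cells. Plgrkt, a membrane receptor for plasminogen, fell by 0.62 ± 0.12 (limma adjusted p = 0.00598). Its arrays read 7.73, 7.32 and 7.80 against 7.0, 7.12 and 6.87, without overlap.

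Vldlr and Lrp8 belong to a family of lipoprotein receptors, some of which take up complexes of activators with serpins, and moved in opposite directions. Vldlr went from 6.17 ± 0.28 to 4.39 ± 0.13 (SD, n = 3 each) and Lrp8 from 7.27 ± 0.03 to 7.94 ± 0.02. The HA-Fbxl10 level of Vldlr lay below the median of all genes. Lrp1, the broadly expressed receptor of that family, differed by -0.26 ± 0.09 (SE) and did not pass (limma adjusted p = 0.076). Igf2r, which binds plasminogen and the urokinase receptor, rose by 0.55 ± 0.08, and Pdpn, a membrane glycoprotein that activates platelets, rose by 0.46 ± 0.06. That role of Pdpn lies outside plasminogen activation, yet the list's counts of rises and of calls include it.

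Anxa2 and S100a10 encode the subunits of a surface complex that binds plasminogen and the tissue-type activator. Both fell slightly, Anxa2 by 0.23 ± 0.06 (SE, limma adjusted p = 0.0283) and S100a10 by 0.26 ± 0.07 (adjusted p = 0.0301). Anxa2 was no longer called when control replicate 1, control replicate 2, HA-Fbxl10 replicate 2 or HA-Fbxl10 replicate 3 was left out (adjusted p from 0.0775 to 0.101). For S100a10 this held when either group lost its replicate 1 or its replicate 3 (adjusted p from 0.0642 to 0.108). Neither was called with array medians subtracted (adjusted p of 0.0792 for Anxa2 and 0.0913 for S100a10) or with all probe sets tested (0.064 and 0.0782). S100a10 lies on chromosome 3 in a stretch with a median of -0.27, and its difference was 0.01 once that median was subtracted. Anxa2 lies on chromosome 9 in a stretch with a median of 0.2, and the same step moved it to -0.43 (limma adjusted p = 0.00182). Plg, the plasminogen gene, which is expressed chiefly in liver, read 3.84 ± 0.12 and 3.87 ± 0.10 (SD, n = 3 each). Serpinf2, the gene of the plasmin inhibitor alpha-2-antiplasmin and a close neighbour of Serpinf1, differed by 0.05 with a 95% interval from -0.22 to 0.31 (limma adjusted p = 0.85).

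In the coagulation list the gene that changed most was Tfpi, which encodes the Kunitz-type inhibitor of the tissue factor and factor VII complex. Tfpi read 5.93, 5.74 and 5.84 in control cells and 7.74, 7.83 and 7.78 in HA-Fbxl10 cells. The groups did not overlap, and Tfpi was 3.85-fold higher, a log2 difference of 1.95 ± 0.07 (SE, limma adjusted p = 4.77e-07). The F3 value minus the Tfpi value within an array was lower by 2.39 in HA-Fbxl10 cells. The measured changes of the 2 genes, read by different probes, thus differed by 5.23-fold (exact permutation p = 0.1, the smallest possible, adjusted 0.1). All 30 expressed neighbours of Tfpi had a lower difference than Tfpi, with a median of 0.09. Tfpi is also made by endothelial cells. Of 16 endothelial markers 2 rose, the receptor genes Flt1 (1.62 ± 0.10, SE) and Kdr (0.51 ± 0.09), and the others were not called. The control level of Kdr (3.69) lay below the lower quartile over the genes, and how large its rise was is uncertain. The mean level of that list was 4.31 to 4.40 on control arrays and 4.43 to 4.51 on HA-Fbxl10 arrays. Its median log2 difference was -0.01, and 2 of the 16 lay above the median of all genes. The part of endothelial-type expression in the rise of Tfpi was not tested.

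Of 33 coagulation, anticoagulant and thrombin receptor genes besides the set, 32 were measured, and 3 rose, 4 fell and 25 were not called. The 21.9% called is close to the 21.1% of all genes, and the list's median was -0.02. F2r, a thrombin receptor gene, rose from 9.11 ± 0.05 to 9.58 ± 0.03 (SD, n = 3 each), a difference of 0.47 ± 0.06 (SE, limma adjusted p = 0.000743). It lies on chromosome 13 in a stretch with a median of 0.29, and its difference was 0.17 (adjusted p = 0.1) once that was subtracted. F8, the factor VIII gene, fell by 0.69 ± 0.08 (adjusted p = 0.000424), with mean levels of 4.63 and 3.94, both below the median of all genes. Small changes were those of F13a1, the factor XIII subunit gene (0.32), F7, the factor VII gene (-0.30), Pros1, the protein S gene (-0.25), and Ggcx, the vitamin K dependent carboxylase gene (-0.21, log2 differences). The control level of F13a1 (3.63) was, like that of Kdr, below the lower quartile of gene levels, and the size of its change is uncertain. These 4 calls were not stable. Ggcx was no longer called whichever of the 6 arrays was left out (adjusted p from 0.0647 to 0.108). F13a1 was no longer called when control replicate 1, control replicate 2, HA-Fbxl10 replicate 1 or HA-Fbxl10 replicate 3 was left out (adjusted p from 0.0761 to 0.125). For F7 (adjusted p from 0.0637 to 0.1) and Pros1 (from 0.0543 to 0.128) this held for control replicates 1 and 3 and each HA-Fbxl10 replicate. The count of 7 fell to 3 or 4 when control replicate 1, control replicate 3 or any HA-Fbxl10 replicate was left out. With the neighbours' median subtracted, Pros1 stood at -0.06 and Ggcx at 0.04.

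**Figure D4:**
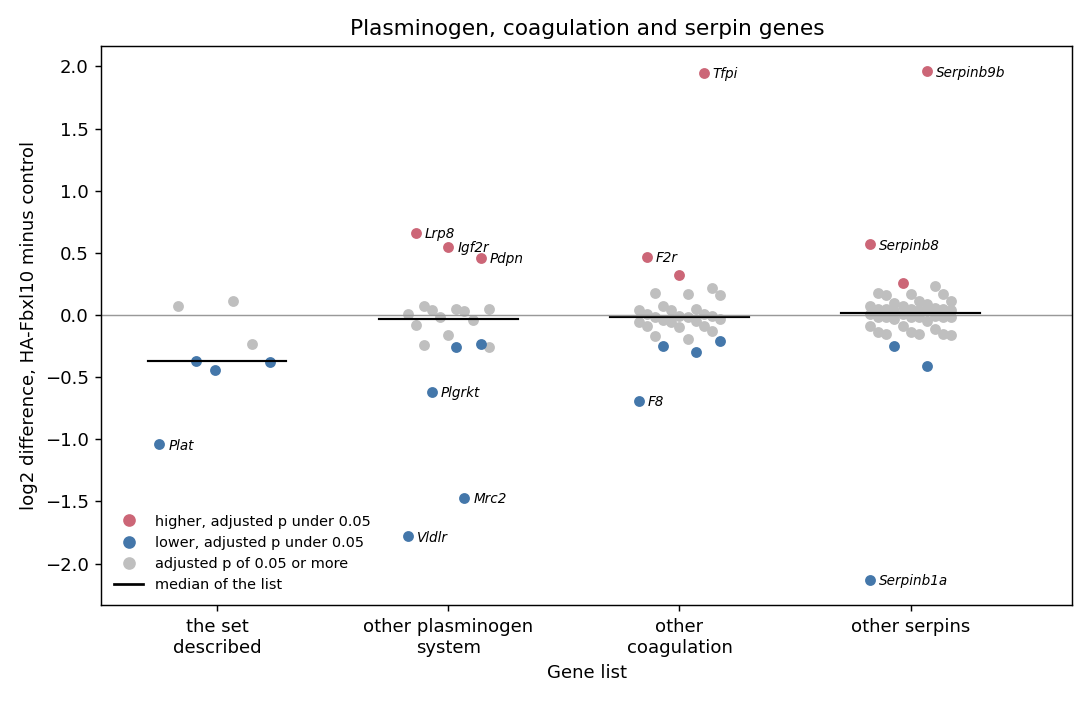
Log2 difference, HA-Fbxl10 minus control, of every measured gene of the 7-gene set, of 20 other plasminogen system genes, of 32 other coagulation genes and of 46 other serpin genes, with n = 3 arrays per group. Coloured points passed an adjusted p of 0.05, names mark larger changes, and bars are list medians, -0.37 for the set and -0.03, -0.02 and 0.02 for the other lists. Genes on more than 1 list are drawn in each.

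Besides those of the set, 46 serpin genes were measured. Of these 3 rose, 3 fell and 40 were not called (13% called, against 21.1% of all genes). Their median was 0.02, and 33 of them lay below the lower quartile of levels. The 5 above the median level of all genes were Serpinb1a, Serpinb6a, Serpinb8, Serpinb9b and Serpinh1. All of those were called, against 37% of all genes above that level. The largest changes were in clade B, the intracellular serpins, on chromosome 13. Serpinb1a, an inhibitor of neutrophil serine proteases, read 8.13, 7.97 and 8.10 in control cells and 5.98, 5.96 and 5.86 in HA-Fbxl10 cells, a 4.39-fold fall (limma adjusted p = 3.31e-07). Serpinb9b, of the granzyme inhibitor branch, read 6.59, 6.58 and 6.67 against 8.50, 8.68 and 8.54, a 3.88-fold rise (limma adjusted p = 4.77e-07). Both belong to groups of close copies, so probes may not separate the copies fully.

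Serpinb8 rose by 0.57 ± 0.10 (SE, limma adjusted p = 0.00266). Smaller calls were Serpinb9, a granzyme B inhibitor gene (-0.41), Serpinb6a (-0.25) and Serpinh1, the collagen chaperone gene (0.26, log2 differences). Serpinb9 was no longer called when control replicate 1, control replicate 3, HA-Fbxl10 replicate 2 or HA-Fbxl10 replicate 3 was left out (adjusted p from 0.0626 to 0.0704). For Serpinb6a this held for control replicates 1 and 3 and each HA-Fbxl10 replicate (adjusted p from 0.0674 to 0.149). For Serpinh1 it held for each control replicate and HA-Fbxl10 replicates 1 and 2 (adjusted p from 0.0690 to 0.133). The count of 6 became 3 when control replicate 1, control replicate 3 or HA-Fbxl10 replicate 2 was left out.

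For each gene of the set that fell, the gene outside these lists with the most similar values was found, by the root-mean-square difference of the 6 array values after each gene was centred on its own mean. For Plat it was Adam8, a membrane metalloprotease gene, at a distance of 0.049 on the log2 scale, and Adam8 went from 6.02 to 5.05. For Plau it was Mrps28, a mitochondrial ribosome protein gene, at 0.0306. For Serpinf1 it was Rxylt1, a glycosyltransferase gene of dystroglycan modification, at 0.016. For F3 it was Aldh4a1, a mitochondrial proline breakdown gene, at 0.026. Their log2 differences were -0.97, -0.39, -0.38 and -0.43. With 6 arrays and 4208 genes called, such a likeness mostly restates the size of the difference.

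Cell types that express these genes strongly were looked for by their markers. Of 16 macrophage markers 1 fell, Cd14 (-0.45), the others were not called, and 2 lay above the median of all genes, with list means of 3.99 to 4.0 on control and 3.94 to 4.01 on HA-Fbxl10 arrays. Of 14 platelet markers 10 were measured and 2 fell, the chemokine gene Ppbp (-2.31) and the integrin gene Itga2b (-0.57), with list means of 4.74 to 4.84 and 4.43 to 4.59. Of 16 epithelial markers 2 rose, Krt19 (0.71) and Krt7 (0.35, all log2 differences), with list means of 4.72 to 4.80 and 4.73 to 4.87. Median log2 differences were 0.01 for the macrophage list and -0.01 for the platelet and the epithelial lists. The part of such cells in the values of the set was not tested.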

How the data were processed

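Expression was measured on 6 Affymetrix arrays, 3 per group. The deposited table holds log2 values from RMA, which the submitters' processing notes name without version, settings or genome build. Values were used without further normalisation and hold no detection calls, dates or batches, so batch was not tested. Quantile normalisation hides a shift common to most genes.

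The platform annotation gives 1 gene for 21789 of 35556 probe sets, several for 1621, and 12146 are unnamed here. Symbols were updated through Entrez identifiers (21698), accessions (3) or kept (88) with RefSeq's table of GRCm38.p6, which gave names, chromosomes and gene order. The highest-mean probe set per gene left 19936 genes, with no filter on dim genes. The test was limma's (version 3.58.1, R 4.3.3, lmFit, eBayes, two-sided, Benjamini-Hochberg over all genes, threshold 0.05), without a replicate block. Differences are HA-Fbxl10 minus control. Figures used matplotlib 3.10.9.

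Data simulated for this comparison held 19936 genes, with changes planted in genes above the median level. The test found 74.6% of 67 planted log2 changes of 0.5. It found 97% of 67 changes of 1 and 100% of 66 changes of 2, with 12 false calls among 193. No smaller change was planted, and far fewer genes were changed than the 4208 called in the arrays. These rates thus do not describe the smaller falls of Plau, Serpinf1 and F3.

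The genes of the set, the other lists and the tests were chosen with earlier results of these data known. Named were the set, Kdm2b, Serpinf2, Plg, Tfpi, genes past the threshold in the plasminogen, coagulation and serpin lists, and the most similar gene of each gene that fell. Lrp1, Tcim and the called cell type markers were named after their values were seen.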

Additional observations from a re-analysis of the deposited data

How the results depend on the processing

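Plat, Plau, Serpinf1 and F3 kept their direction and their calls in all 17 alternatives, which were quantile normalisation, array medians subtracted, a test without the dimmest 30% of genes, mean probe sets, all probe sets, a variance trend (plain or robust), array weights, the replicate block, an adjusted p of 0.01, each array left out and the neighbours' median subtracted. Each of these genes has 1 probe set, so mean probe sets could not change its values. Leaving out dim genes, all probe sets, the variance trends, the replicate block and the adjusted p of 0.01 also left the differences unchanged. Those settings bear only on the calls. The log2 difference of Plat ran from -1.22 to -1.0, of Plau from -0.51 to -0.34, of Serpinf1 from -0.40 to -0.26 and of F3 from -0.62 to -0.38. Plaur and Thbd were called in none, and Serpinb2 was called without control replicate 2 but was not tested with the dimmest genes left out. At an adjusted p of 0.01, 2536 genes were called in place of 4208. The 7 calls among other coagulation genes became 4 with array medians subtracted, 3 with all probe sets tested, 4 with the replicate block, 3 at an adjusted p of 0.01, 4 with the neighbours' median subtracted, and 3 to 5 with single arrays left out. The 6 calls among other serpins became 3 with all probe sets tested, 3 at an adjusted p of 0.01 and 3 to 5 with single arrays left out. Subtracting the neighbours' median turned S100a10 from -0.26 to 0.00622 and Ggcx from -0.21 to 0.0423. The cause of these changes was not tested. Samples of the 2 groups share only replicate numbers. Deviations of same-numbered samples correlated at 0.085, -0.283 and -0.093, and no pair correlated best with its own number. With the replicate block 3397 genes were called, 3 other plasminogen system genes rose and 3 fell, and Anxa2 and S100a10 were not called (adjusted p of 0.0681 and 0.0781). Dim probe sets such as those of Serpinb2 and Thbd limit what can be seen of those genes.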
